A study of Mus musculus with 8 samples.

Results

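The reads over 5 genes of the circadian clock and of glucocorticoid action were followed in livers of fed and fasted mice. The genes were Arntl, which encodes the clock activator BMAL1, Cry2 and Bhlhe40, which encode clock repressors, Nr3c1, which encodes the glucocorticoid receptor, and Fkbp5, a co-chaperone and target of that receptor. They were chosen because earlier results of these libraries had shown their reads to differ between the feeding groups. Their levels and changes are therefore given as a description, with no test. Of 19398 GENCODE genes with a row in the deposited table, these 5 made up the set, and 11 of the 83057 rows shared exon bases with them on either strand.

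Total RNA was sequenced from livers of 8 male mice of the C57BL/6 strain (Jackson Laboratory), about 20 weeks old. Of these, 4 ate freely (ad libitum) and 4 had fasted for 24 h. The mice were co-housed, matched for age and weight, given to the groups at random and killed at 10 am in both groups. The labels name no transgene or drug, and each library is labelled a biological replicate. All values come from a single hour of the day, so a change of a gene's level and a shift of its daily rhythm cannot be told apart.

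The circadian clock of mammalian cells is a feedback loop. BMAL1 pairs with CLOCK, the pair switches on the PER and CRY genes through DNA elements called E-boxes, and the PER and CRY proteins then repress the pair. A second loop acts on Arntl itself, which ROR receptors activate and REV-ERB receptors repress through a shared element. In liver, feeding time is a strong cue for this clock. Glucocorticoids are adrenal steroids that rise in fasting, bind the receptor made from Nr3c1 and switch on genes of glucose production, and the receptor also induces Fkbp5, whose protein lowers the receptor's affinity for hormone.

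The sequences show where letters of clock elements lie at the starts of these transcripts. Each is the RefSeq window from 250 bases before the start site to 50 bases from it on, on GRCm38.p6, 5′ to 3′ on the transcript's strand, with the matched letters in capitals. Windows were searched on both strands for CACGTG (E-box), CACGTT (an E-box variant), AGGTCA (the core element of ROR and REV-ERB receptors) and TGTTCT (a core element of the glucocorticoid receptor). The first is the downstream window of 2 overlapping Arntl windows (chr7:113207261-113207560, plus strand), the second that of Cry2 (chr2:92434020-92434319, minus strand). The third belongs to 0610040F04Rik (chr6:108660885-108661184, minus strand), a non-coding gene that starts within exon 1 of Bhlhe40 on the other strand and supplies the rows read for that gene. The last is that of Fkbp5 (chr17:28486100-28486399, minus strand).
Arntl: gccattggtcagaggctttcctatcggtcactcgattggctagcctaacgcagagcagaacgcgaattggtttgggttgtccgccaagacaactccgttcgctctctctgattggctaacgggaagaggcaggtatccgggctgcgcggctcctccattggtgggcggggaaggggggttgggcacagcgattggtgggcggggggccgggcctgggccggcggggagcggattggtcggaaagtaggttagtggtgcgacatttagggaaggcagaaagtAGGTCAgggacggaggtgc
Cry2: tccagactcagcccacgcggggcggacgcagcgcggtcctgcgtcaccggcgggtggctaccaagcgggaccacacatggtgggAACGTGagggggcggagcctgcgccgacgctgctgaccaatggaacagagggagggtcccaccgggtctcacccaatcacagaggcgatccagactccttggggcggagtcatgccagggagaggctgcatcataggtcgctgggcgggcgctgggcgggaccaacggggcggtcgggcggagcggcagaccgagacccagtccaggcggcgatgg
0610040F04Rik: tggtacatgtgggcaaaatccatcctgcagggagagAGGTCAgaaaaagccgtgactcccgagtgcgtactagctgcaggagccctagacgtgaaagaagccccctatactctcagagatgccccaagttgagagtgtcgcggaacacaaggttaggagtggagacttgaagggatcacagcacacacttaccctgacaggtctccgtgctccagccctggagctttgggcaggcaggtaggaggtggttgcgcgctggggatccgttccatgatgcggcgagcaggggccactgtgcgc
Fkbp5: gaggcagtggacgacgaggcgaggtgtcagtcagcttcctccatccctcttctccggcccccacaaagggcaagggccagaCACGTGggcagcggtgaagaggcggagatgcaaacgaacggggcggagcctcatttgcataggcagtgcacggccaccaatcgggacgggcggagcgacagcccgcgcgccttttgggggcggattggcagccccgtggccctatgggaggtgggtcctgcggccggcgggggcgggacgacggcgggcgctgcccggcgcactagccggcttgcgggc

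The Arntl window held AGGTCA at position 282, counted from 1 at its 5′ end, and the 0610040F04Rik window held it at position 37. The Cry2 window held CACGTT on the other strand, printed as AACGTG, at position 85. The Fkbp5 window held CACGTG at position 82. None of the 4 windows held TGTTCT on either strand. Among 32851 mouse windows of the same length, AGGTCA was found in 16.3%, CACGTG in 7.15%, CACGTT in 4.68% and TGTTCT in 18.97%, so each match is a description of the letters and not of a bound site.

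The deposited table lists transcripts of NONCODE, a catalogue of long non-coding RNAs, so the reads over a coding gene are those of catalogue entries that lie on its exons and not those of its full mRNA. The table gives no exon positions. A row with a single exon was placed by its span, a row equal to a GENCODE transcript in ends, strand, exon number and length by that transcript's exons, and any other row by its first and last base only. Of the 11 rows, 6 lay on the gene's own strand and 5 on the opposite strand, 6 had a single exon, and their lengths ran from 220 to 3590 bases. The coding-potential score of the table (CNCI) was below 0, the side of non-coding sequence, in 10 of the 11, against 87.3% of all rows. Use of strand in the counting is not given in the sources used here, so reads of the 2 strands cannot be told apart where rows overlap.

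**Figure D1:**
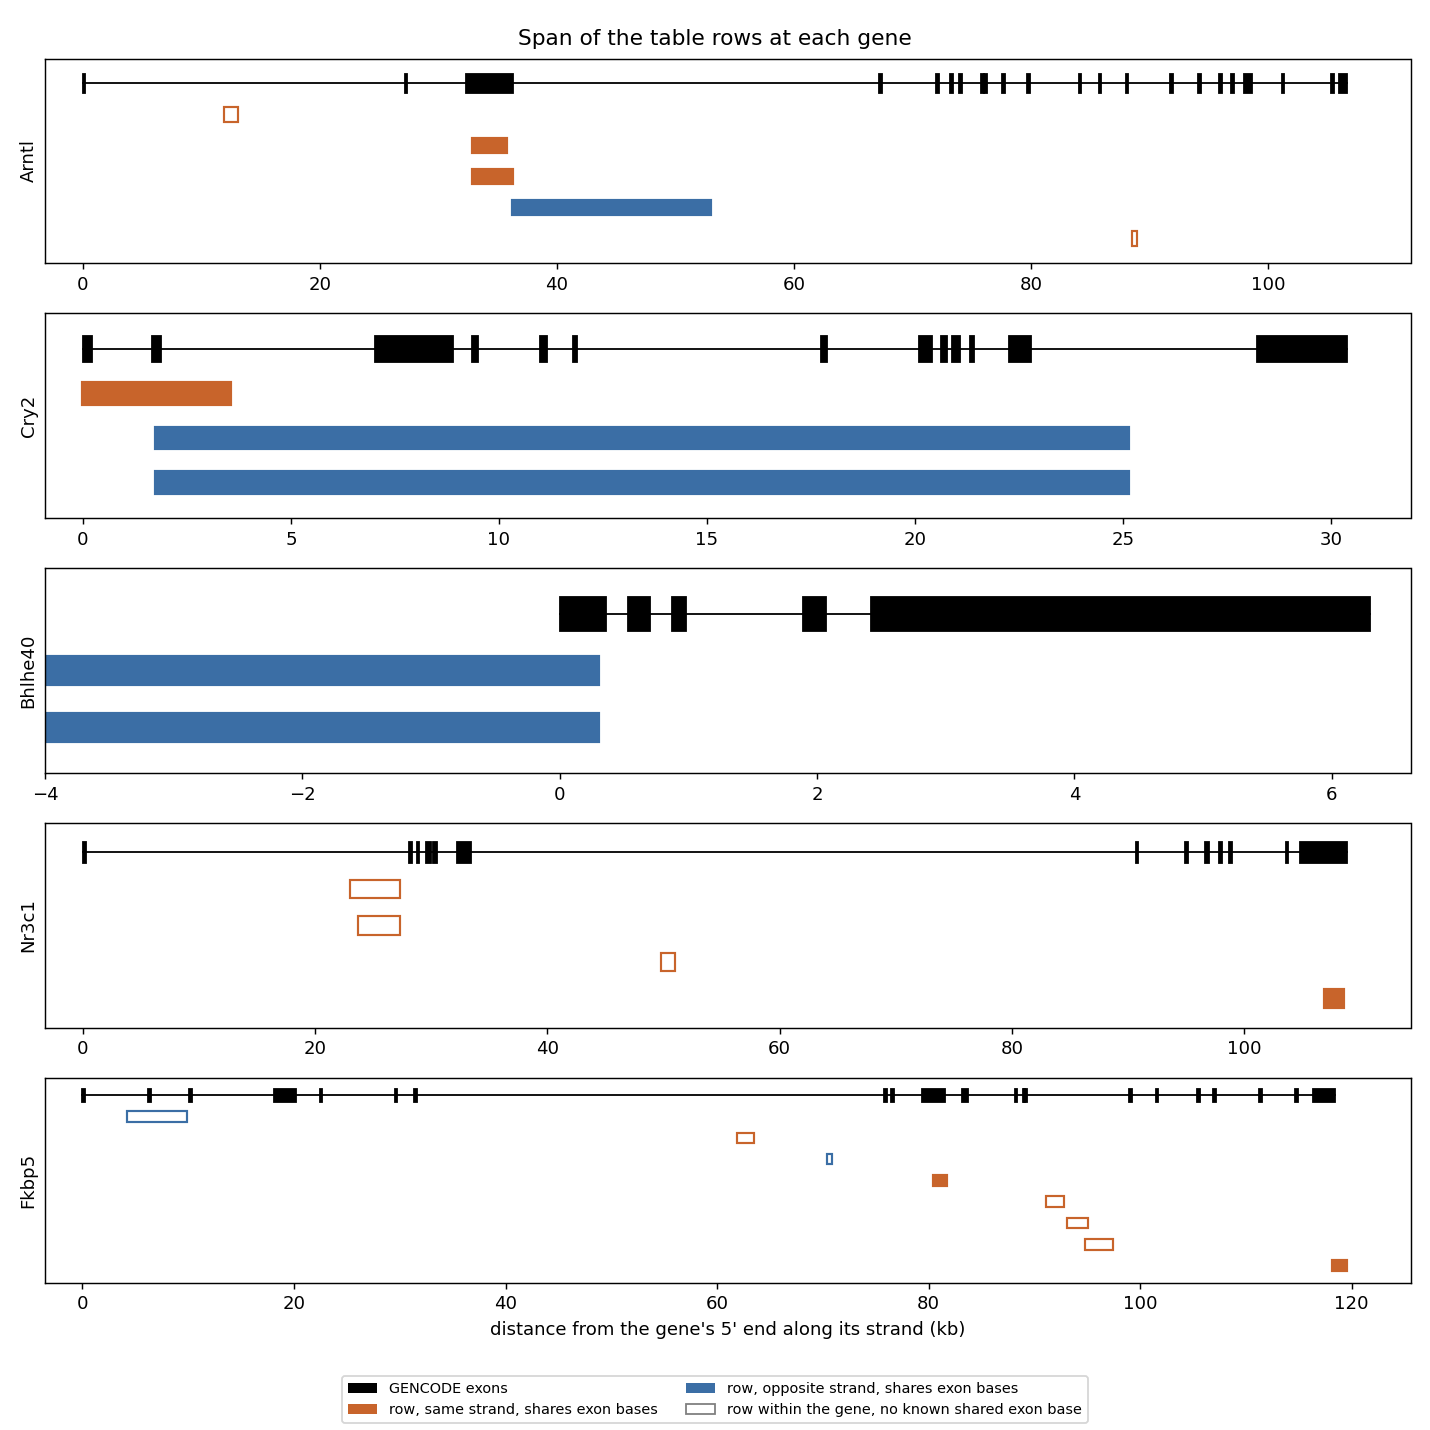
Span of each row of the table at the 5 genes, by distance from the gene's 5′ end in kilobases along its strand; black boxes are GENCODE exons, filled bars the 11 rows that share exon bases and open bars rows within the gene that share none that is known. The bars of spliced rows include introns, those at Bhlhe40 run on beyond the left edge, and Bhlhe40 has no row on its own strand.

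Library totals without the mitochondrial 16S rRNA, which was left out, ran from 51107745 to 68691606 reads in the ad libitum libraries and from 90243439 to 119486211 in the fasted ones. Fasted replicates 1 to 3 stood apart from the other 5 libraries. On the first principal component of all tested genes, with 57.6% of the variance, they lay between 55.3 and 60.7, against -44.3 to -37.8 for the ad libitum libraries and -10.7 for fasted replicate 4. Odd counts, among rows of 21 to 200 reads, made up 16.5 to 17.8% in those 3 libraries and 9.21 to 10.8% in the other 5. Each change below is therefore also given for fasted replicate 4 alone, as a plain log2 difference from the ad libitum mean.

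Hepatocyte identity could be checked with 3 of 9 listed markers (Cps1, Hnf4a and Ttr), whose summed level was 330 to 465 CPM in the ad libitum and 739 to 913 CPM in the fasted libraries. The markers moved apart within that sum, which Cps1 carried (292 ± 57.3 against 734 ± 75.3 CPM), while Ttr fell from 64.6 ± 4.84 to 26.5 ± 1.37 CPM (adjusted p = 3.90e-06 by edgeR). Hnf4a was read from the opposite strand alone, so its mRNA was not measured. That row stood at 24.7 ± 3.44 and 50.2 ± 12.1 CPM, and at 32.1 CPM in fasted replicate 4. CPM are reads relative to the library total, scaled with TMM factors. Markers of stellate cells (6 of 10 with a row) summed to 22.8 to 38.7 CPM and 28.8 to 75.7 CPM, those of endothelial cells (4 of 9) to 3.01 to 3.82 and 3.18 to 7.86 CPM, and those of Kupffer cells (2 of 8) to 3.92 to 5.44 and 3.45 to 3.95 CPM. Reln, read from opposite-strand rows alone, carried the stellate sum (9.37 ± 2.79 against 42.2 ± 21.2 CPM), but stood at 11.3 CPM in fasted replicate 4. By edgeR, Lrat and Col1a1 fell by 0.91 and 1.07 on the log2 scale (adjusted p = 0.021 and 0.027), and Pdgfrb stood at -0.51 without passing. In fasted replicate 4, Lrat, Col1a1 and Pdgfrb stood at -0.76, -0.34 and -0.29. Dcn went the other way from these, from 7.90 ± 1.63 to 9.38 ± 1.33 CPM (log2 change 0.25), also without passing. Of the endothelial markers, Stab2, again from opposite-strand rows alone, stood at 1.90 ± 0.221 and 3.26 ± 0.933 CPM. Clec4g, likewise from the opposite strand, stood at 0.598 ± 0.135 and 0.379 ± 0.0894 CPM, and Pecam1 at 0.772 ± 0.0614 and 1.10 ± 0.293 CPM. In fasted replicate 4, Stab2 stood at 1.95, Clec4g at 0.469 and Pecam1 at 0.740 CPM. Fcgr2b, also opposite-strand and not tested, held 2 to 6 reads in ad libitum libraries and 182, 104, 202 and 2 in fasted replicates 1 to 4. Csf1r carried the Kupffer sum and fell from 4.57 ± 0.550 to 3.38 ± 0.251 CPM (adjusted p = 0.025 by edgeR). Lymphocyte markers (2 of 6) summed to 5.80 to 9.45 and 5.26 to 8.35 CPM, and bile duct markers (4 of 5) to 0.844 to 2.01 and 0.804 to 1.33 CPM. None of these markers with a row was at 0 in all libraries, and the 5 erythroid markers were not analysed here. The part of the other cell types in the values below was not tested, and fewer cells of a type and less RNA per cell cannot be told apart in whole liver.

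Reads over Arntl, Cry2 and Fkbp5 were higher in fasted livers on average, and those over Nr3c1 and at Bhlhe40 exon 1 were lower. The log2 changes by edgeR were 0.65 ± 0.22 for Arntl, 0.42 ± 0.13 for Cry2, -1.37 ± 0.43 for Bhlhe40, -0.59 ± 0.09 for Nr3c1 and 0.67 ± 0.16 for Fkbp5. Here and below, the standard error of a log2 change is derived, as its absolute value divided by the square root of edgeR's F statistic. Fasted replicate 4 lay on the same side for all 5 genes, at 0.52, 0.53, -0.82, -0.42 and 0.69 in the same order, against 0.67, 0.38, -1.57, -0.65 and 0.66 for the mean of fasted replicates 1 to 3. The groups did not overlap for Nr3c1 and Fkbp5, 2 of the 5 genes, where 24.1% of all 13120 tested genes had groups that do not overlap. Since the genes were chosen from this contrast, nothing is read from that count. For Bhlhe40 these values belong to opposite-strand rows alone.

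**Figure D2:**
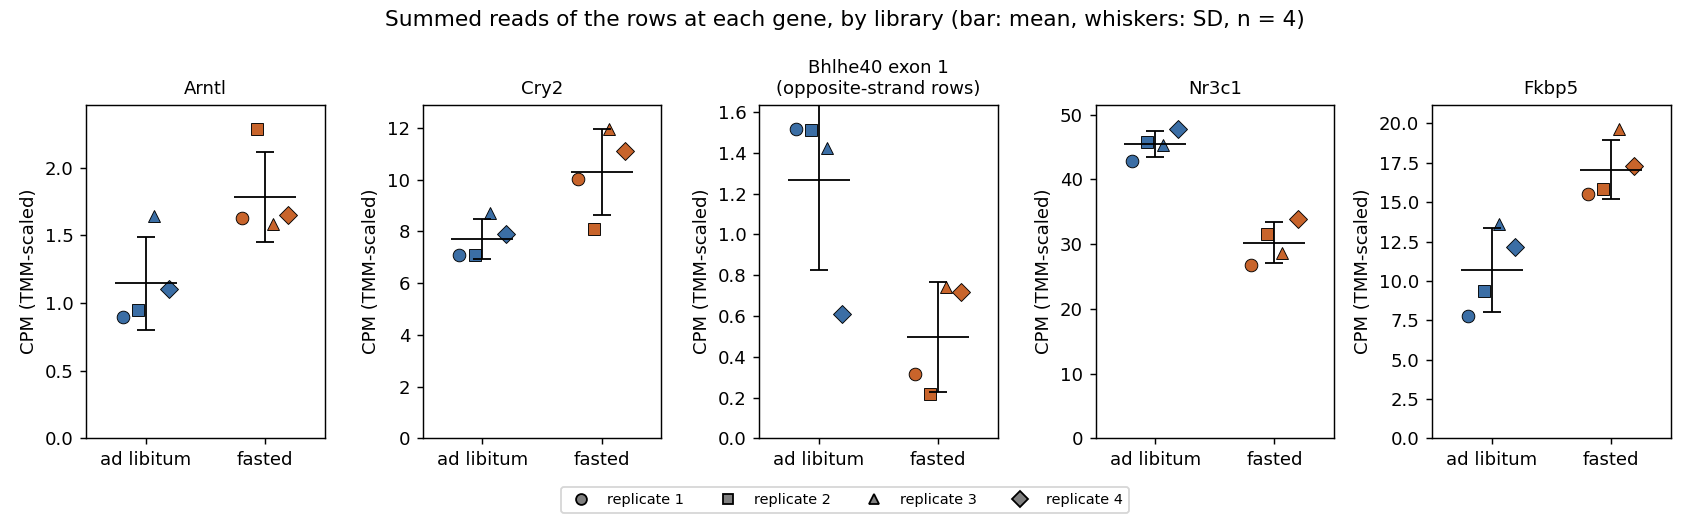
Summed reads of the rows at each gene in TMM-scaled CPM, a panel per gene with its own axis from 0; symbols are the 4 replicates of each group, the bar is the mean and the whiskers the SD. Nr3c1 and Fkbp5 show groups that do not overlap, from 42.8 to 47.7 against 26.8 to 33.9 CPM and from 7.76 to 13.6 against 15.5 to 19.6 CPM.

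Per length, the rows differed widely in level. On the deposited RPKM scale (reads relative to row length and library total), the Nr3c1 row stood highest, with an ad libitum mean of 18.6. The Fkbp5 rows followed at 3.75 and 1.92, the Cry2 rows at 1.12, 0.597 and 0.488, the rows at Bhlhe40 at 0.270 and 0.171, and the Arntl rows at 0.138 and 0.110. The 4 lowest levels rest on few reads, since the Arntl rows together held 54 to 304 reads in a library and those at Bhlhe40 29 to 105. Within a gene, neighbours in this order were not separated beyond their spread for the spliced Cry2 rows (SD 0.249 and 0.113), the rows at Bhlhe40 (SD 0.0584 and 0.0940) and the Arntl rows (SD 0.0348 and 0.0455).

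**Figure D3:**
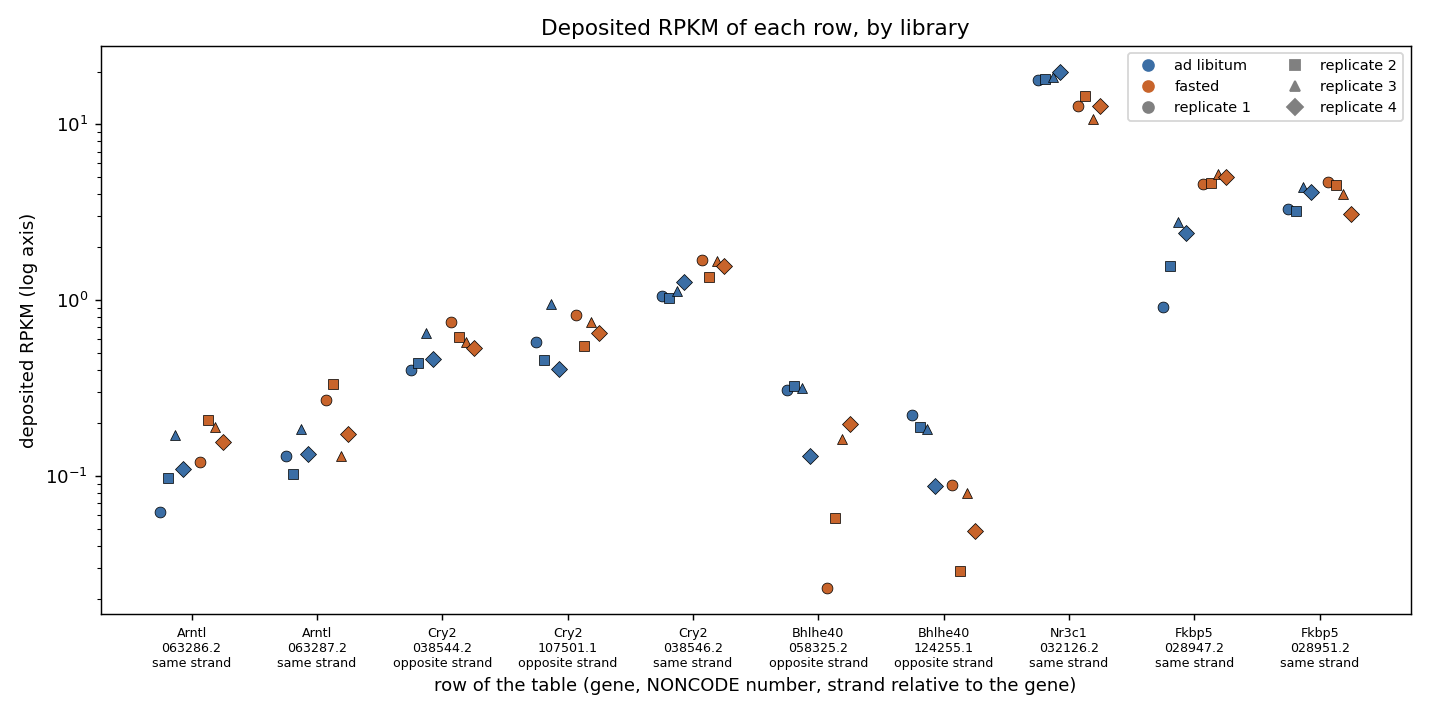
Deposited RPKM of the 10 rows that passed the low-count filter, on a log axis, in each library; blue is ad libitum, orange is fasted, and symbols are replicates. The Nr3c1 row lies lower and the Fkbp5 row at the gene's end and the Cry2 row on its own strand lie higher in every fasted library than in every ad libitum library on this scale; in TMM-scaled CPM the Cry2 row overlaps.

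Arntl (chromosome 7, 113207465 to 113314126, plus strand) was read from 3 rows that touch a retained intron and not from the spliced mRNA. Both same-strand rows start at 113240250 and lie within Arntl-202, a retained-intron isoform, and they share 0 and 160 bases with exons of coding isoforms and none with coding sequence. Summed over the 3 rows, Arntl stood at 0.894, 0.949, 1.65 and 1.11 CPM in ad libitum replicates 1 to 4 and at 1.63, 2.28, 1.58 and 1.65 CPM in fasted replicates 1 to 4. Ad libitum replicate 3 lay above fasted replicates 1 and 3, and the groups overlapped. The means were 1.15 ± 0.343 and 1.79 ± 0.332 CPM (SD, n = 4 each).

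The longer row (NONMMUT063287.2, to 113243748) held 44, 30, 46 and 46 reads in the ad libitum and 144, 198, 58 and 76 reads in the fasted libraries. The shorter one (NONMMUT063286.2, to 113243216) held 18, 24, 36 and 32 reads and 54, 104, 72 and 58 reads. Their mean RPKM was 1.65 and 1.53 times as high in fasted livers, and 1.25 and 1.41 times in fasted replicate 4 alone. The shorter row lies within the longer one, so these separate values rest on how shared reads were assigned, which is not known. The opposite-strand row (NONMMUT127653.1, 113243703 to 113260459) had 2 reads in each of fasted replicates 1 and 2 and 0 in the other 6 libraries, and it did not pass the low-count filter. A count of 0 allows up to 3 reads where reads are counted singly, and more where they come in even numbers. A pair of further same-strand rows lies elsewhere in the gene, away from any known exon base. Of these, the one nearer the gene's start (NONMMUT063285.2) had 6 to 36 reads in the ad libitum and 34 to 62 in the fasted libraries, and the other (NONMMUT063288.2) had 2 to 6 and 2 to 30. Both overlapped between the groups.

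Cry2 (chromosome 2, 92403646 to 92434043, minus strand), a partner of the PER proteins in repressing CLOCK and BMAL1, was read from a row at its start and from an antisense pair. The same-strand row (NONMMUT038546.2, 92430483 to 92434072) covers the start of the gene, with 462 of its 3590 bases in exons, 212 of them coding, and 3099 in introns. It also reaches 29 bases beyond the annotated gene into the window printed above. Its RPKM was 1.06, 1.02, 1.12 and 1.27 in ad libitum replicates 1 to 4 and 1.70, 1.36, 1.66 and 1.57 in fasted replicates 1 to 4. Every fasted library lay above every ad libitum library on this scale, with means of 1.12 ± 0.110 and 1.57 ± 0.153 RPKM, a ratio of 1.40.

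The antisense rows at Cry2 overlapped between the groups. NONMMUT038544.2 (92408892 to 92432308, plus strand) equals the GENCODE transcript D930015M05Rik-201, a spliced non-coding RNA with 295 of its 1190 bases on Cry2 exons. Its RPKM was 0.488 ± 0.113 in ad libitum and 0.620 ± 0.0955 in fasted livers. NONMMUT107501.1, with ends 1 base away and 5 exons in place of 4, stood at 0.597 ± 0.249 and 0.692 ± 0.121 RPKM. The own-strand row held 66.1 to 80.6% of all reads of the 3 rows, so the summed level follows it. Summed, Cry2 stood at 7.10, 7.10, 8.69 and 7.91 CPM in the ad libitum and 10.0, 8.10, 11.9 and 11.1 CPM in the fasted libraries. Fasted replicate 2 lay between ad libitum replicates 4 and 3, and the summed groups overlapped. On this CPM scale the own-strand row overlapped too, at 6.22 in fasted replicate 2 against 6.38 in ad libitum replicate 4, so its separation in RPKM depends on the scaling.

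Bhlhe40 (chromosome 6, 108660629 to 108666925, plus strand), a repressor that competes with CLOCK and BMAL1 at E-boxes, had no row on its own strand, so its mRNA was not measured here. Both rows run over it from the opposite strand. NONMMUT058325.2 (108577039 to 108660934) equals 0610040F04Rik-201, shares 118 of its 1734 bases with Bhlhe40 exons, 22 of them coding, and has most of its length upstream of the gene. NONMMUT124255.1 has ends 1 base away and 15 exons in place of 7. The values are those of the rows of this divergent transcript. Over the shared exon bases, reads of Bhlhe40 itself cannot be told apart from them.

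The 2 rows together counted 105, 86, 71 and 43 in the ad libitum libraries, in replicate order, and 39, 29, 61 and 58 in the fasted ones. As CPM these were 1.51, 1.51, 1.43 and 0.609, against 0.318, 0.218, 0.743 and 0.715. The first 3 ad libitum libraries lay above all fasted libraries, while ad libitum replicate 4 lay below fasted replicates 3 and 4. The means were 1.27 ± 0.439 and 0.498 ± 0.270 CPM. Between the rows, fasted replicate 4 stood at 0.728 times the ad libitum mean RPKM in NONMMUT058325.2 and at 0.283 times in NONMMUT124255.1, against 0.301 and 0.385 for the mean of fasted replicates 1 to 3. These rows overlap, so the difference between them also rests on how shared reads were assigned, which is not known.

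Nr3c1 (chromosome 18, 39410545 to 39519421, minus strand) was read from a single row in its last exon. NONMMUT032126.2 (39410812 to 39412527) has all 1716 bases in exons of coding isoforms and none in coding sequence, so it lies in the 3′ untranslated region. It held 2970, 2609, 2261 and 3369 reads in the ad libitum and 3291, 4202, 2352 and 2750 reads in the fasted libraries, the most of the 5 genes. Its level was 42.8, 45.9, 45.4 and 47.7 CPM in ad libitum replicates 1 to 4 and 26.8, 31.6, 28.7 and 33.9 CPM in fasted replicates 1 to 4. The raw reads overlap because the fasted libraries are deeper, while in CPM every fasted library lay below every ad libitum library. The means were 45.5 ± 2.02 and 30.2 ± 3.14 CPM, and the ad libitum libraries varied little.

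Other rows within Nr3c1, with no known shared exon base, overlapped between the groups. NONMMUT032127.2 (39468446 to 39469661, 1216 bases in an intron) stood at 1.56 ± 0.298 RPKM in ad libitum and 1.32 ± 0.217 RPKM in fasted livers, a ratio of 0.846, against 0.678 for the row in the last exon. NONMMUT032128.2 had 4 to 12 reads in either group. NONMMUT104432.1 had 2 reads in ad libitum replicate 2 and 0 elsewhere. In each of the other 7 libraries this allows up to 3 reads if counted singly, and more where reads come in even numbers.

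Fkbp5 (chromosome 17, 28399094 to 28517527, minus strand) was read from a row over its end and a row in its body, and these behaved unlike each other. The end row (NONMMUT028947.2, 28397935 to 28399353) has 260 of its 1419 bases in the last exon, none coding, and 1159 bases downstream of the annotated gene. Its RPKM was 0.914, 1.55, 2.80 and 2.42 in ad libitum replicates 1 to 4 and 4.58, 4.66, 5.23 and 5.01 in fasted replicates 1 to 4. Every fasted library lay well above the ad libitum libraries, which themselves spread about 3-fold. The mean ratio was 2.54, and 2.61 in fasted replicate 4 alone.

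The inner row (NONMMUT028951.2, 28435793 to 28437075) has 1069 of its 1283 bases in exons of coding isoforms, none coding, and the rest in an intron. It stood at 3.30, 3.22, 4.38 and 4.10 RPKM in the ad libitum and 4.72, 4.51, 4.04 and 3.11 RPKM in the fasted libraries. On this scale the groups overlapped fully, fasted replicate 4 was the lowest of all 8 libraries, and the ratio of means was 1.09. In TMM-scaled CPM the groups overlapped too, but fasted replicate 4 (6.22) lay above ad libitum replicates 1 and 2 (5.94 and 6.08). Divided within each library, the end row was 0.277, 0.483, 0.638 and 0.590 times as high as the inner row in ad libitum replicates 1 to 4 and 0.970, 1.03, 1.29 and 1.61 times in fasted replicates 1 to 4. This ratio does not depend on library scaling. Its means were 0.497 ± 0.161 and 1.23 ± 0.292.

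Of the 4 same-strand rows within Fkbp5 introns, 1 had groups that do not overlap, and their ratios of mean RPKM ran from 1.30 to 1.73. That row (NONMMUT028953.2, 28453997 to 28455678) stood at 2.86 ± 0.244 RPKM in ad libitum and 4.94 ± 0.651 RPKM in fasted livers. Intron rows stood at 2.86 to 3.46 RPKM in ad libitum livers on average, above the end row at 1.92 RPKM, and at 3.78 to 4.94 RPKM in fasted livers, near the end row at 4.87 RPKM. Of all 11 rows at the 5 genes, 3 had groups that do not overlap in RPKM (Cry2 own strand, Nr3c1 and the Fkbp5 end; in TMM-scaled CPM the Cry2 row overlapped), where the share was 15.4% of 40840 rows that passed the low-count filter. Nothing is read from that count either.

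**Figure D4:**
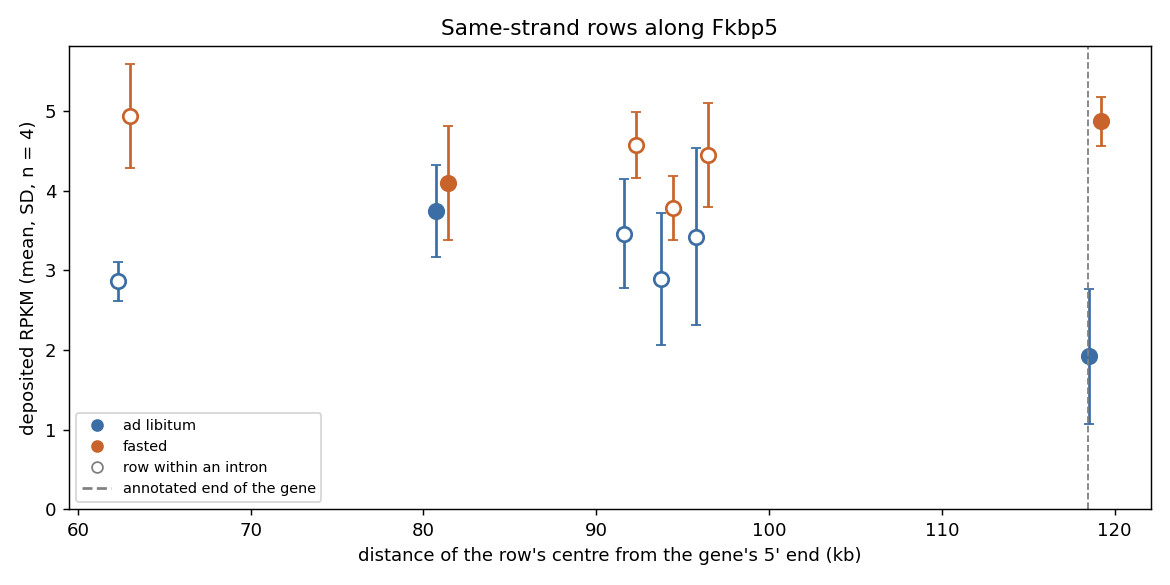
Deposited RPKM (mean and SD, n = 4 per group) of the same-strand rows along Fkbp5, by distance of the row's centre from the gene's 5′ end in kilobases; open circles are rows within introns and the dashed line is the annotated end of the gene. The row at the gene's end goes from 1.92 to 4.87 RPKM and the inner exon row from 3.75 to 4.10 RPKM.

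The 3 genes whose log2 CPM ran most alike with each of the 5 over the 8 libraries are given as a description. No listed clock or glucocorticoid gene is among them, and nothing is read from that, since so few candidates were taken. By Pearson's r among 5113 candidates (5114 for Bhlhe40) with at least 1 CPM on average, Arntl ran with Arfip1 (0.94), Efna5 (0.93) and Fchsd2 (0.92), and Cry2 with Tmem102 (0.98), Pacsin3 (0.96) and Mecr (0.96). Bhlhe40 ran with Letm1 (0.96), Usp46os2 (0.95) and Fam207a (0.95), Nr3c1 with Cacul1 (0.99), Tmem170b (0.98) and Nqo2 (0.98), and Fkbp5 with Bmp1 (0.98), Afg3l2 (0.98) and Hibadh (0.97). These values describe 8 libraries in which the group difference, depth and the split of the fasted libraries are shared by all genes.

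Among other clock genes, reads summed over both strands rose for Csnk1a1, Btrc, Timeless, Nono and Alas1 and fell for Prkaa2. The Alas1 call was lost when same-strand rows alone were counted. Of 38 listed clock genes other than the 5, 25 had a row and 21 were tested, 5 of them from opposite-strand rows alone. With edgeR's quasi-likelihood test and Benjamini-Hochberg adjustment over 13120 genes, 5 rose and 1 fell at an adjusted p under 0.05. That is 28.6% of those tested, against 24.9% of all genes, of which 13.6% rose and 11.3% fell. The median log2 change was 0.12, against 0.01 over all genes. Clock, Per1, Per2, Cry1, Nr1d2 and Dbp were not analysed here, for want of a matched row.

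None of the 3 tested activators and 3 tested repressors of the clock passed. Rora, which encodes an activator of Arntl, stood at 112 ± 16.02 CPM in ad libitum and 113 ± 6.41 CPM in fasted livers (log2 change 0.01 ± 0.11). Nr1d1, which encodes the repressor REV-ERBα and was read from opposite-strand rows alone, stood at 53.8 ± 9.69 and 38.3 ± 13.4 CPM (log2 change -0.49 ± 0.26). Per3 stood at 22.6 ± 5.91 and 26.9 ± 6.75 CPM (log2 change 0.25 ± 0.25). The log2 changes of Arntl2 and Bhlhe41 were -0.81 and -0.19. A p that misses the threshold does not show that these genes were alike in the groups.

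Among the 10 tested kinases, ligases and other modifiers of clock proteins, 4 rose and 1 fell. Csnk1a1, a casein kinase, rose from 57.3 ± 3.06 to 70.7 ± 1.42 CPM, with no overlap of the groups (log2 change 0.30, adjusted p = 0.014 by edgeR, and 0.35 in fasted replicate 4). Its call was lost without ad libitum replicate 1 (adjusted p = 0.057) and with library totals in place of TMM (adjusted p = 0.099). Timeless rose from 3.59 ± 0.353 to 12.6 ± 5.85 CPM on average, but fasted replicate 4 stood at 3.95 CPM and the other fasted libraries at 14.5 to 16.6 CPM. Timeless was summed from 1 same-strand row and 3 opposite-strand rows, and its log2 change by edgeR was 1.82 in the sum, 0.70 in the same-strand row alone (adjusted p = 0.048) and 2.38 in its most abundant row. Btrc, a subunit of a ubiquitin ligase that acts on PER proteins, and Nono rose by 0.43 and 1.09 on the log2 scale, with -0.01 and 0.28 in fasted replicate 4. Nono held only 10 to 14 reads in the ad libitum and 20 to 68 in the fasted libraries. Prkaa2, a catalytic subunit of AMP-activated kinase, fell from 71.8 ± 13.7 to 55.4 ± 1.89 CPM (by edgeR, a log2 change of -0.38 and adjusted p = 0.044). It stood at -0.32 in fasted replicate 4. Gsk3b, Csnk1d, Csnk1e and Fbxw11 did not pass, with log2 changes of 0.01, 0.21, 0.12 and 0.01. Among these, Csnk1d and Csnk1e were read from opposite-strand rows alone.

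The calls of Timeless, Nono, Btrc and Prkaa2 were lost in most fits with 1 library left out. Without any 1 of the ad libitum libraries or of fasted replicates 1 to 3, the adjusted p was 0.061 to 0.068 for Timeless, 0.053 to 0.14 for Nono and 0.061 to 0.096 for Btrc. For Prkaa2 it was 0.085 to 0.12 on leaving out any of ad libitum 1, 2 and 4 and fasted 1, 2 and 3.

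Of the 5 tested clock outputs 1 rose. Reads at Alas1, which encodes the rate-limiting enzyme of heme synthesis, rose from 1.11 ± 0.248 to 1.94 ± 0.544 CPM (by edgeR, a log2 change of 0.80 and adjusted p = 0.031). They came from 1 same-strand row and 5 opposite-strand rows, and the same-strand row alone gave a log2 change of 0.03 (adjusted p = 0.95 by edgeR). Alas1 stood at 1.13 CPM in fasted replicate 4, and the call was lost on leaving out any of ad libitum 2, 3 and 4 and fasted 1, 2 and 3 (adjusted p 0.066 to 0.087). Usp2, a deubiquitinase with a strong daily rhythm in liver, stood at 17.8 ± 4.19 and 32.9 ± 14.3 CPM (log2 change 0.89 ± 0.37) and passed without fasted replicate 2 (adjusted p = 0.012). Tef, Hlf and Rgs16 stood at log2 changes of 0.21, -0.04 and 0.75 without passing, with Rgs16 read from the opposite strand alone.

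Hspa8, Klf9, Cdkn1a and Ppargc1a rose and H6pd and Errfi1 fell among genes of glucocorticoid action. Of 54 listed genes other than the 5, 25 had a row and 23 were tested, 10 of them from opposite-strand rows alone. By edgeR 4 rose and 2 fell, 26.1% of those tested against 24.9% of all genes. The median log2 change was -0.08. Tat, Sgk1, Dusp1, Pck1 and G6pc, well-known targets of the receptor, were not analysed here.

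Among receptor, ligand and chaperone genes, 1 of 2 and 1 of 4 tested genes passed. Hspa8, a heat shock protein that loads hormone receptors, rose from 302 ± 96.1 to 618 ± 41.6 CPM, with no overlap of the groups (log2 change 1.04, adjusted p = 0.0031 by edgeR, and 1.11 in fasted replicate 4). H6pd, which supplies the cofactor for glucocorticoid activation in the endoplasmic reticulum, fell from 220 ± 28.8 to 171 ± 9.83 CPM (by edgeR, a log2 change of -0.36 and adjusted p = 0.031). It stood at -0.29 in fasted replicate 4. The H6pd call was lost on leaving out any of ad libitum 1, 3 and 4 and fasted 1, 2 and 3 (adjusted p 0.061 to 0.091). Nr3c2, Hsp90aa1, Hspa4 and Stip1 stood at -0.33, -0.11, 0.16 and -0.21, with Nr3c2 and Hsp90aa1 read from opposite-strand rows alone. None of the 8 tested cofactors passed by edgeR, and Ncor1, Ncoa1, Crebbp, Ep300, Med1, Med14 and Nrip1 had log2 changes from -0.23 to 0.18. Among these, Ncor1 and Ncoa1 were read from opposite-strand rows alone.

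Of the 9 tested targets of the receptor other than Fkbp5, 3 rose and 1 fell. Of the same 9, 5 were read from opposite-strand rows alone. Ppargc1a, a coactivator of glucose production, rose from 1.40 ± 0.528 to 3.17 ± 0.497 CPM (by edgeR, a log2 change of 1.19 and adjusted p = 0.0050). Cdkn1a, a cell cycle inhibitor read from the opposite strand alone, rose from 0.149 ± 0.0972 to 0.547 ± 0.149 CPM (by edgeR, a log2 change of 1.84 and adjusted p = 0.0086), and Klf9, a transcription factor, from 53.1 ± 4.75 to 67.6 ± 8.20 CPM (log2 change 0.35, adjusted p = 0.029 by edgeR). Errfi1, an inhibitor of EGF receptor signalling read from the opposite strand alone, fell by 0.40 on the log2 scale (adjusted p = 0.042 by edgeR). In fasted replicate 4 these 4 genes stood at 1.00, 1.80, 0.37 and -0.56.

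Tsc22d3, among the most widely induced targets of the receptor, stood at 120 ± 4.32 and 110 ± 22.3 CPM (log2 change -0.13 ± 0.13). Mt2, Glul, Sds and Lpin1 stood at log2 changes of -0.55, 0.20, 0.42 and 0.02 and did not pass. Of these, Mt2, Glul and Sds were read from opposite-strand rows alone, so their mRNA was not measured. The Klf9 call was lost on leaving out any of ad libitum 1, 2 and 3 and fasted 2 (adjusted p 0.061 to 0.082). The Errfi1 call was lost on leaving out any of ad libitum 1, 2 and 3 and fasted 1, 2 and 4 (adjusted p 0.052 to 0.12). With library totals in place of TMM, the edgeR calls of Btrc, Nono, Prkaa2, H6pd, Klf9 and Errfi1 were lost as well (adjusted p 0.063 to 0.11). The calls of Ppargc1a, Cdkn1a and Hspa8 were kept in each of the 8 fits with 1 library left out. Cdkn1a gave no value with same-strand rows or with at least 1 CPM in 4 libraries.

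**Figure D5:**
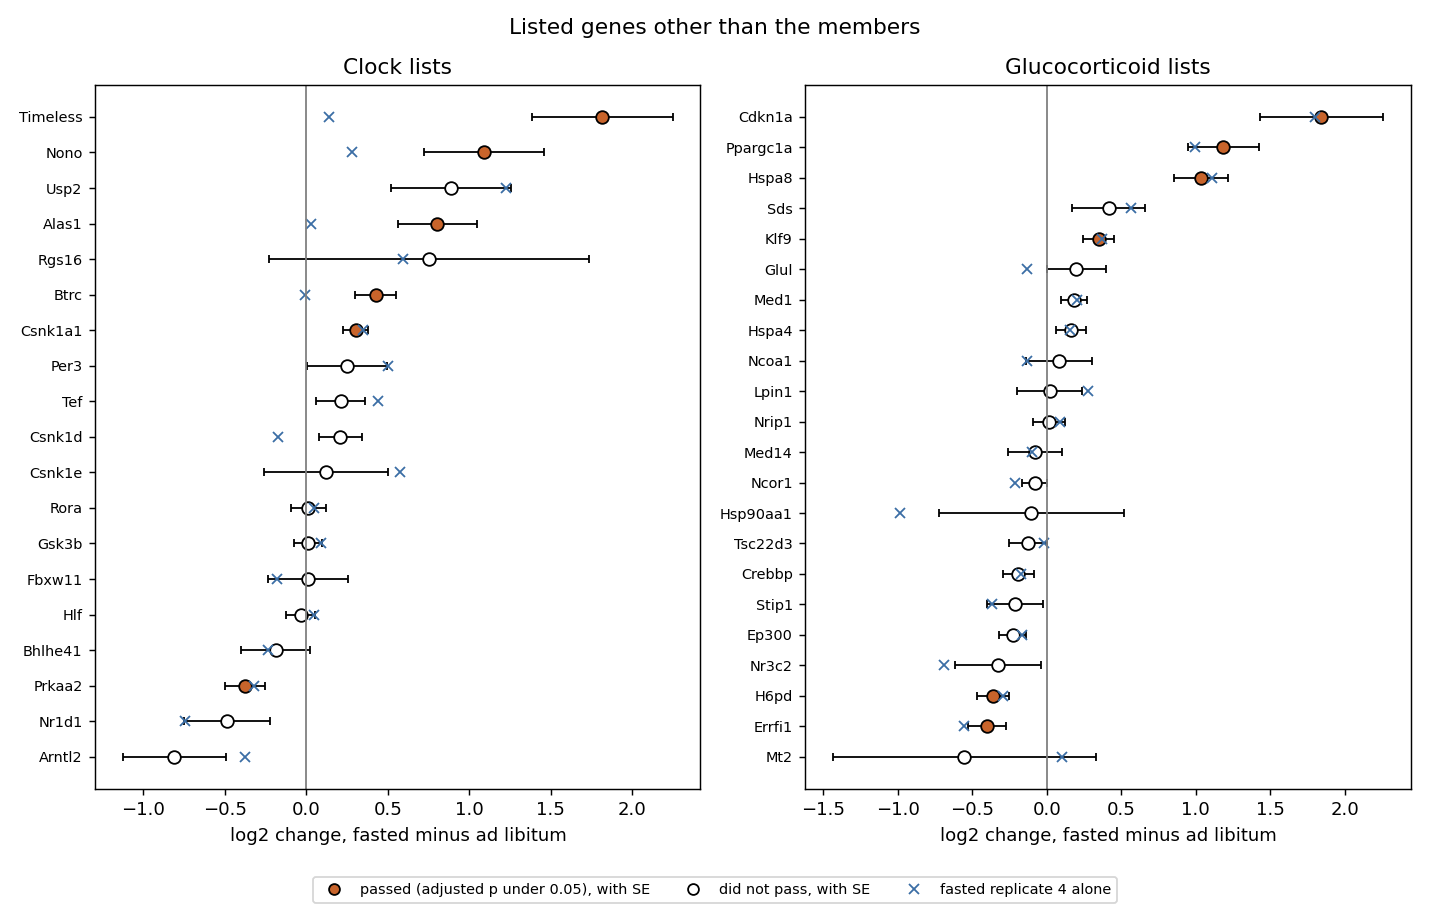
Log2 change between fasted and ad libitum livers of 41 tested genes of the clock and glucocorticoid lists other than the 5 described above, with the standard error derived from edgeR's F statistic. Filled points passed at an adjusted p under 0.05, and crosses give fasted replicate 4 alone. Timeless, Nono, Btrc and Alas1 have their cross near 0, while the crosses of Cdkn1a, Ppargc1a and Hspa8 lie beside their points.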

How the data were processed

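The deposited table gives raw read counts and RPKM per NONCODE transcript for 8 liver libraries, with transcript length and exon number (other values) and a CNCI score per transcript, per the file headers. Libraries were stranded total RNA from 1 µg, per the labels' protocols, and bcl2fastq 2.17, BWA and mm10 are named in the submitters' processing notes. The counter, its use of strand and its handling of reads with several matches are stated in no source used here. Empty cells were read as 0.

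Rows were matched to GENCODE mouse release 21 with bedtools 2.31.1. Counts were summed per gene, on either strand for coding and on the same strand for non-coding genes. The mitochondrial 16S row, empty in ad libitum replicate 3, was left out. A gene was found for 35.8% of rows. How reads in overlapping rows of a gene were assigned is not known, and some may count more than once. At Arntl the shorter row lies within the longer one, yet held 72 reads against 58 in fasted replicate 3. Not every read of the shorter row was therefore also counted in the longer one. Values of single overlapping rows rest on that assignment.

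The groups were compared with edgeR 4.0.16 in R 4.3.3 (robust quasi-likelihood F test, two-sided, TMM, filterByExpr, Benjamini-Hochberg adjustment over all genes tested), after a test on simulated data. The deposited RPKM, whose totals include the 16S reads, served for levels per length. Alternatives used limma 3.58.1 and DESeq2 1.42.0 among others. Reads mostly come in even numbers, so levels are given with their SD between libraries. The edgeR fits took the counts as deposited, with a counting term besides the spread between libraries. They did not allow for the even numbers. Replicates are labelled biological.

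The 5 genes, the lists and the tests were chosen with earlier results of these data known. All 5 genes, each of their rows and the tested listed genes are named, as are the 3 genes of highest Pearson r with each (log2 CPM, prior count 2, at least 1 CPM on average, no predicted-gene, Rik, pseudogene or accession symbol). Values of 3 tested listed genes are counted in their lists and otherwise not reported here. RefSeq start-site windows were found for 3 of the 4 genes for which one was sought.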

Additional observations from a re-analysis of the deposited data

Results flagged for a closer look

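Within each group of 4 libraries, the highest or lowest library was compared with the other 3 by Dixon's 95% criterion. Of 92 groups checked (the 5 genes and 41 listed genes), 8 had such a library, and chance alone gives about 1 in 20. Arntl stood at 2.28 CPM in fasted replicate 2, against 1.58 to 1.65 CPM in the other 3 fasted libraries. The rows at Bhlhe40 exon 1 stood at 0.609 CPM in ad libitum replicate 4, against 1.43 to 1.51 CPM. Timeless stood at 3.95 CPM in fasted replicate 4, against 14.5 to 16.6 CPM, and Alas1 at 1.13 CPM in the same library, against 2.12 to 2.27 CPM. Fbxw11 stood at 0.646 CPM in fasted replicate 2, against 0.444 to 0.464 CPM. In the ad libitum group, Nono stood at 0.281 CPM in replicate 3, against 0.173 to 0.184 CPM, Hsp90aa1 at 1.12 CPM in replicate 2, against 0.120 to 0.260 CPM, and Ncor1 at 52.2 CPM in replicate 3, against 57.9 to 58.9 CPM.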

How the results depend on the processing

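The 5 genes kept their direction in every alternative that gave a value, with log2 changes of 0.51 to 0.86 for Arntl, 0.34 to 0.53 for Cry2, -1.63 to -0.81 for Bhlhe40, -0.65 to -0.42 for Nr3c1 and 0.54 to 1.34 for Fkbp5. The Fkbp5 value of 1.34 came from its most abundant row alone, the end row, and the Nr3c1 value of -0.42 from fasted replicate 4 set alone against the ad libitum group. Bhlhe40 gave no value with same-strand rows or with at least 1 CPM in 4 libraries.

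Of all genes 3272 passed, 1981 to 4358 with 1 library left out and 674 with fasted replicate 4 set alone against the ad libitum group. The low values were 2009 and 2077 without ad libitum replicates 1 and 4 and 2020 and 1981 without fasted replicates 1 and 3. Of the listed clock genes 6 passed, 1 to 8 with 1 library left out, 2 with library totals in place of TMM, 1 with limma-voom and 1 with the replicate block. The count was 1 on leaving out any of ad libitum 1, 2 and 4 and fasted 1 and 3, 2 on leaving out ad libitum 3 or fasted 2, and 8 on leaving out fasted 4. Of the glucocorticoid genes 6 passed, 3 to 5 with 1 library left out (3 on leaving out any of ad libitum 1 and 3 and fasted 2) and 3 with library totals. With fasted replicate 4 set alone against the ad libitum group 0 listed genes passed by edgeR or limma-voom, and 1 clock gene and 5 glucocorticoid genes were under an unadjusted p of 0.05 by either tool. That arm is a single library, assumed to vary like the other libraries, so these p-values hold no measure of spread among mice like it. Fewer libraries enter that contrast, and for the other settings the cause was not tested.

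Of 41 listed genes 15 changed sign in some setting, and of these Btrc alone passed in the comparison of all libraries. With fasted replicate 4 set alone against the ad libitum group the log2 change was -0.0060 for Btrc, -0.17 for Csnk1d, -0.17 for Fbxw11, -0.14 for Glul, 0.045 for Hlf, 0.11 for Mt2 and -0.14 for Ncoa1. With limma-voom it was 0.25 for Hsp90aa1 and 0.14 for Mt2, with the replicate block 0.13 for Hsp90aa1 and -0.0048 for Fbxw11, and with library totals -0.0057 for Lpin1. With the most abundant row it was -0.023 for Gsk3b and -0.017 for Nrip1, and with same-strand rows -0.031 for Gsk3b. With 1 library left out it ran from -0.35 to 0.076 for Bhlhe41, -0.099 to 0.36 for Csnk1e, -0.13 to 0.096 for Fbxw11, -0.022 to 0.34 for Glul, -0.026 to 0.047 for Gsk3b, -0.084 to 0.013 for Hlf, -0.41 to 0.91 for Hsp90aa1, -0.13 to 0.17 for Lpin1, -0.23 to 0.0064 for Med14, -0.95 to 0.13 for Mt2, -0.062 to 0.24 for Ncoa1, -0.046 to 0.072 for Nrip1 and -0.056 to 0.11 for Rora.

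Replicate numbers did not pair the libraries. Deviations from the group means of same-numbered libraries correlated at 0.036, 0.0085, 0.012 and -0.0023, and 2 of 8 libraries correlated best with their own number. With the replicate block 2491 genes passed. Depth limits the rows at Arntl and Bhlhe40 most, since these hold the fewest reads.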
